A study of Homo sapiens with 12 samples.

Results

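The MAPK feedback genes followed here are 10 genes that the ERK branch of the mitogen-activated protein kinase (MAPK) pathway switches on and that, in most cases, act back on it. They are the phosphatases DUSP4, DUSP5 and DUSP6, the inhibitors SPRY1, SPRY2, SPRY4, SPRED1 and SPRED2, and the transcription factors ETV4 and ETV5. They were taken by symbol from the platform annotation of the array, in which each of the 10 has 1 row with no other symbol, out of 32321 rows in all, of which 20546 carry a symbol and were tested. Expression was measured on 12 whole-transcript arrays in 4 groups of 3. The cell lines L-428 and L-1236 are established lines from Hodgkin lymphoma, a tumour of B-cell origin whose cells have lost much of the B-cell programme. Cells of each line were transduced with tGFP only, a fluorescent marker and the control, or with a tGFP vector that also carries the B-cell transcription factor EBF1 behind an internal ribosome entry site, which the labels write tGPF-IRES-EBF1. All groups were cultured for 8 days and sorted for tGFP, and the labels call the 3 samples of a group independent without saying whether they came from separate transductions. The p-values therefore measure the spread between these arrays. Each line stands for itself alone as a model, and the signal is an average over the sorted cells, so that a change in every cell and a change in the share of cells cannot be told apart.

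In the ERK pathway a growth factor or antigen receptor loads Ras with GTP, Ras starts the kinases Raf, MEK and ERK, and ERK then drives transcription through ETS and AP-1 factors. DUSP phosphatases remove the activating phosphates from ERK, while Sprouty (SPRY) and SPRED proteins dampen the signal at the level of Ras and Raf. Because ERK signalling induces their genes, these transcripts are widely used as a readout of the pathway. The arrays measured transcripts only, and no phosphorylation of ERK was measured.

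The transduced gene was checked first. The EBF1 row rose by 4.51 on the log2 scale in L-428 and by 5.97 in L-1236 (limma, adjusted p = 6.87e-18 and 4.47e-20). Of 6 Hodgkin cell markers, 5 lay above the median of every array in L-428 tGFP and 6 in each of the other groups. Of 5 B-cell markers, 1 to 3 did, with PAX5 among them in every group, and none of 6 T-cell markers did. Of 4 NK-cell, 5 monocyte and 5 fibroblast or endothelial markers, 1 each did (NKG7, CSF1R and COL1A1). Within groups, arrays correlated at 0.992 to 0.997. On L-428 tGFP replicate 3 the interquartile range over all rows was 2.28, against 2.47 and 2.49 on the other arrays of its group, and on L-1236 tGFP/EBF1 replicate 1 it was 2.17 against 2.26 and 2.31. Results that move without these 2 arrays are given both ways.

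The comparison of EBF1 with tGFP asked how the introduced factor changed each line. SPRED2 fell in both lines, and ETV5 rose in L-428 and fell in L-1236. DUSP4 and SPRED1 also fell in L-428, and DUSP5 and DUSP6 in L-1236. In L-428, 4 of the 10 genes passed an adjusted p of 0.05 (1 higher, 3 lower), where 4.34% of all tested rows did (2.62% higher, 1.72% lower). In L-1236, 4 of 10 passed (0 higher, 4 lower), where 9.64% of rows did (3.69% higher, 5.95% lower). None reached the 2-fold change that the design text also required, which 0.0973% of rows reached in L-428 and 0.146% in L-1236. The median change over the 10 genes was -0.06 in L-428 and -0.09 in L-1236, and over all tested rows it was 0.004 and 0.008. SPRY1, SPRY2, SPRY4 and ETV4 did not pass in either line.

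**Figure D1:**
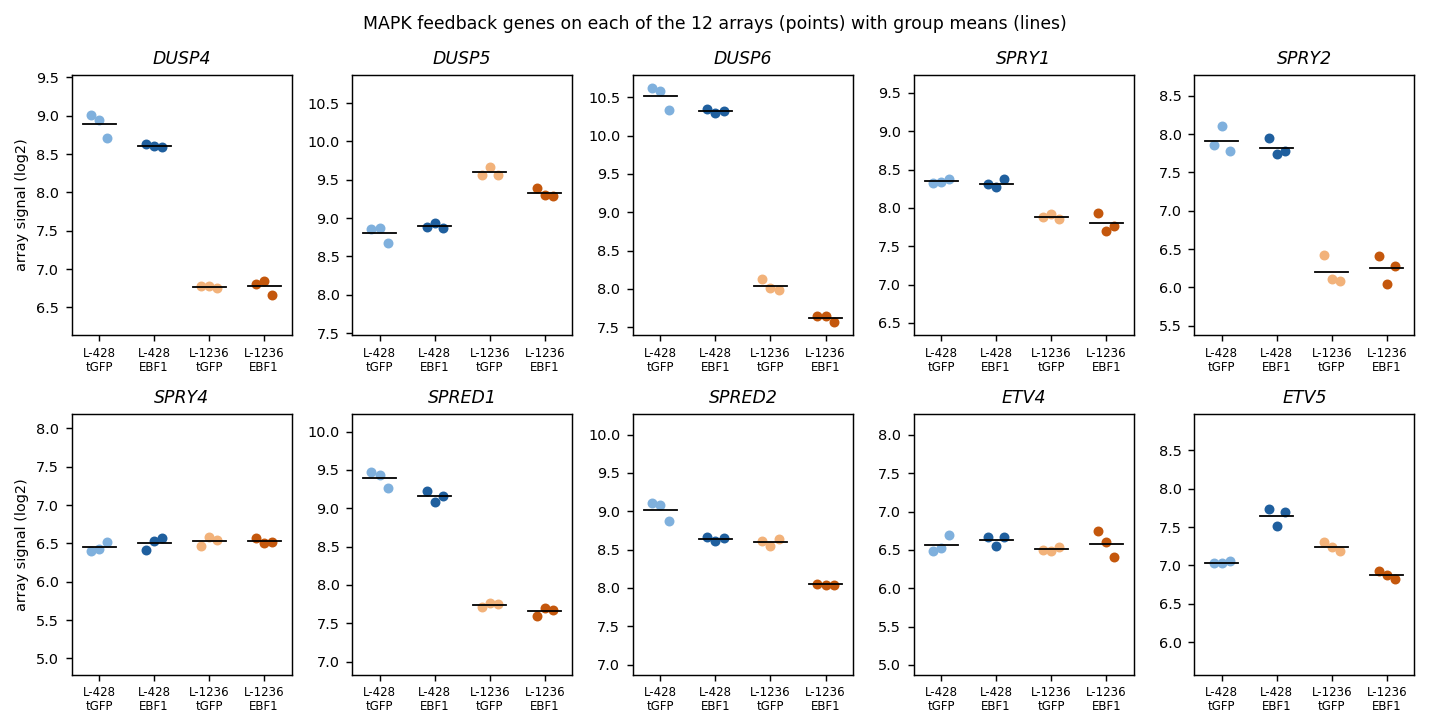
Array signal (log2) of the 10 MAPK feedback genes on all 12 arrays; points are single arrays, horizontal lines are group means (n = 3), and every panel spans the same range of log2 units. DUSP4, DUSP6, SPRY2 and SPRED1 separate the lines, SPRED2 steps down with EBF1 in both lines, and ETV5 moves up in L-428 and down in L-1236.

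The 3 phosphatases remove phosphate from ERK, DUSP5 in the nucleus and DUSP6 in the cytoplasm, while DUSP4, also nuclear, acts on other MAP kinases as well. DUSP6 signal in L-1236 was 8.12, 8.02 and 7.99 with tGFP and 7.64, 7.64 and 7.57 with EBF1 (log2, replicates 1 to 3). All EBF1 arrays lay below all control arrays, and DUSP6 fell by 0.42 ± 0.071 (log2, SE; limma, adjusted p = 0.000496), or 1.34-fold. In L-428 the DUSP6 arrays read 10.62, 10.58 and 10.34 with tGFP and 10.34, 10.29 and 10.32 with EBF1. The control replicate 3, which stands apart in spread, lay inside the EBF1 values, and the change of -0.19 did not pass (limma, adjusted p = 0.157). Without that array the DUSP6 change in L-428 was -0.28 and passed (limma, adjusted p = 0.00662). The effects in the lines differed by 0.23 (95% interval 0.02 to 0.44), which did not pass (limma, adjusted p = 0.24).

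DUSP5 fell in L-1236 and not in L-428. Its arrays in L-1236 read 9.57, 9.67 and 9.56 with tGFP and 9.39, 9.30 and 9.29 with EBF1, without overlap, a change of -0.27 ± 0.064 (log2, SE; limma, adjusted p = 0.0101). The call was lost without L-1236 tGFP replicate 2 or without tGFP/EBF1 replicate 3 (adjusted p up to 0.0697 in limma). In L-428 the DUSP5 values were 8.86, 8.87 and 8.68 with tGFP and 8.88, 8.94 and 8.87 with EBF1, which overlap, and the change of 0.09 did not pass (limma, adjusted p = 0.628). The difference of the DUSP5 effects, 0.36 (95% interval 0.17 to 0.56), passed (limma, adjusted p = 0.0238). It no longer passed when any of 4 arrays was left out, namely L-428 tGFP/EBF1 replicate 1 or 2, L-1236 tGFP replicate 2 or L-1236 tGFP/EBF1 replicate 3, with values from 0.30 to 0.40 over all arrays left out in turn, nor after median centring or when every row of the table was tested.

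DUSP4 fell in L-428, from 9.01, 8.95 and 8.71 with tGFP to 8.63, 8.60 and 8.59 with EBF1. The groups did not overlap, although control replicate 3 lay nearest to the EBF1 arrays, and the change was -0.28 ± 0.072 (log2, SE; limma, adjusted p = 0.0305). The call was lost without any 1 of 5 of the 6 L-428 arrays (adjusted p up to 0.137 in limma). Without tGFP replicate 3 it held, at -0.37. In L-1236 DUSP4 read 6.78, 6.77 and 6.75 with tGFP and 6.81, 6.85 and 6.66 with EBF1, all below the medians of those arrays (7.27 to 7.31). No difference was detectable there (limma, adjusted p = 0.988), and the effects in the lines were not shown to differ (-0.29, 95% interval -0.50 to -0.07; limma, adjusted p = 0.129). With L-428 tGFP replicate 3 left out, the difference of the DUSP4 effects was -0.38 and passed (limma, adjusted p = 0.0102).

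SPRED1 and SPRED2 are membrane-bound Sprouty relatives that bring neurofibromin, a protein that turns Ras off, to the membrane. SPRED2 signal was 9.11, 9.08 and 8.88 in L-428 with tGFP and 8.66, 8.61 and 8.65 with EBF1. In L-1236 it was 8.61, 8.55 and 8.64 with tGFP and 8.06, 8.04 and 8.03 with EBF1. In both lines every EBF1 array lay below every control array. SPRED2 fell by 0.38 ± 0.064 in L-428 (log2, SE; limma, adjusted p = 0.00125), or 1.30-fold, and by 0.55 ± 0.064 in L-1236 (limma, adjusted p = 9.1e-06), or 1.47-fold. Both calls held without each array in turn and under each alternative setting tried except the 2-fold limit. The change ran from -0.45 to -0.33 in L-428 and from -0.58 to -0.53 in L-1236. The effects in the lines were not shown to differ (0.18, 95% interval -0.01 to 0.37; limma, adjusted p = 0.348).

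SPRED1, the paralogue of SPRED2, read 9.47, 9.43 and 9.27 in L-428 with tGFP and 9.22, 9.08 and 9.16 with EBF1. These values do not overlap, and the change was -0.24 ± 0.065 (log2, SE; limma, adjusted p = 0.0445), just inside the threshold. It was lost without any 1 of 9 of the 12 arrays and with the replicate number as a block (limma, adjusted p = 0.0758). The 3 arrays whose removal kept the call were L-428 tGFP replicate 3 and L-1236 tGFP/EBF1 replicates 1 and 2. In L-1236 SPRED1 read 7.71, 7.77 and 7.75 with tGFP and 7.59, 7.70 and 7.67 with EBF1. All EBF1 arrays were lower there too, but the change of -0.09 did not pass (limma, adjusted p = 0.49). Groups whose single arrays do not overlap are common in these data, at 18.3% of tested rows for EBF1 against tGFP in L-428 and 26.7% in L-1236. Among the 10 genes they numbered 4 and 5.

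SPRED2 was the member whose promoter held the full EBF1 recognition palindrome. RefSeq promoters (GRCh38.p14, from 250 bases before to 50 after each listed start) were at hand for 6 of the 10 genes, namely DUSP6, SPRY1, SPRY2, SPRY4, SPRED1 and SPRED2. The full palindrome of 10 bases, which is the core CCCNNGGG with 1 more paired base on each side, was searched on both strands and matched 1.21% of 35116 promoters, or 1.49% of genes counted once, and of the members it matched SPRED2 at 119 to 110 bases before the first of its 2 listed starts. The core alone, which lies within the full palindrome, matched 19.1% of promoters, or 21.9% of genes, and, besides SPRED2, SPRY2. The 250 bases before the start are shown 5′ to 3′ on the strand of the gene for these 2 genes and for DUSP6, which fell in L-1236 with neither match. Capitals mark the full palindrome in SPRED2 (chr2:65432600-65432849, minus strand) and the core in SPRY2 (chr13:80341127-80341376, minus strand). For both genes the window shown was picked because it holds the match. SPRY2 has 3 listed starts, and only the first held the core. The DUSP6 stretch is chr12:89352502-89352751, minus strand.
SPRED2: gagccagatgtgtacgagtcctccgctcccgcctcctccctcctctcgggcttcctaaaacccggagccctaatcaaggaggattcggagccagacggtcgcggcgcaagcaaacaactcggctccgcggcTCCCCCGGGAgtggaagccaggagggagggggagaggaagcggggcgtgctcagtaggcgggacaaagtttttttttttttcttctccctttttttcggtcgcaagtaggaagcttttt
SPRY2: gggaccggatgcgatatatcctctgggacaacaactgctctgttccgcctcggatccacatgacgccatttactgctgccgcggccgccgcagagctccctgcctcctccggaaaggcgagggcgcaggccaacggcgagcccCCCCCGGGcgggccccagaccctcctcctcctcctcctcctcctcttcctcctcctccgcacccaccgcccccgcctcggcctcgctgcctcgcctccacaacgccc
DUSP6: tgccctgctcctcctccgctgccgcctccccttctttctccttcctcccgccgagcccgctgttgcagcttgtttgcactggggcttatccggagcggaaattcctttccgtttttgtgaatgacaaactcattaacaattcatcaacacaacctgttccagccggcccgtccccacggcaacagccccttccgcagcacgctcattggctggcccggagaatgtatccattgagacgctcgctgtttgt
The ETS motif CCGGAAGT (4.14% of promoters) and the cyclic-AMP response element TGACGTCA (1.85%) were not found in the windows of the 6 genes. The AP-1 motif TGANTCA (7.71%) was found at the second SPRED2 start. A match describes the letters of the window, and no binding of EBF1 was measured.

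The Sprouty genes, whose products block receptor signalling on the way to Ras and Raf, did not pass in either line. SPRY1 read 8.32, 8.33 and 8.38 in L-428 with tGFP and 8.31, 8.27 and 8.38 with EBF1, and 7.89, 7.91 and 7.85 in L-1236 with tGFP and 7.93, 7.70 and 7.76 with EBF1. SPRY2 read 7.86, 8.10 and 7.78 in L-428 with tGFP and 7.95, 7.75 and 7.78 with EBF1, and 6.42, 6.12 and 6.09 in L-1236 with tGFP and 6.42, 6.05 and 6.29 with EBF1. EBF1 and control arrays overlapped for both genes in both lines. In L-1236 all SPRY2 values lay below the medians of those arrays (7.27 to 7.31), where a change may go unseen. SPRY4 stayed between 6.40 and 6.58 on all 12 arrays, in the lower part of the table's signal range (percentile 29.2 of row means), where a change may go unseen. The 95% intervals of the EBF1 effect ran from -0.16 to 0.11 for SPRY1, -0.31 to 0.13 for SPRY2 and -0.07 to 0.19 for SPRY4 in L-428 (log2). In L-1236 they ran from -0.22 to 0.05, from -0.18 to 0.26 and from -0.13 to 0.13. With array weights SPRY1 passed in L-1236, at -0.13 under both ways of weighting (limma, adjusted p = 0.00334 and 0.0415), against -0.09 without weights. Both weightings leaned on L-1236 tGFP/EBF1 replicate 3, with weights of 36.7 (not converged) and 3.86. Replicates 1 and 2 of that group had at most 0.355 and 0.496.

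ETV4 and ETV5 are related ETS transcription factors that ERK signalling induces and that carry its output to further genes. ETV5 read 7.03, 7.03 and 7.06 in L-428 with tGFP and 7.74, 7.51 and 7.70 with EBF1. In L-1236 it read 7.31, 7.25 and 7.18 with tGFP and 6.93, 6.88 and 6.82 with EBF1. In each line the groups stood clear of each other, in opposite order. ETV5 rose by 0.61 ± 0.065 in L-428 (log2, SE; limma, adjusted p = 9.52e-06), or 1.53-fold, and fell by 0.37 ± 0.065 in L-1236 (limma, adjusted p = 0.000834), or 1.29-fold. Its row lies near the middle of the table's signal range (percentile 48.3). In L-428 tGFP and in L-1236 with EBF1 every ETV5 value lay below its array median (7.19 to 7.30 and 7.27 to 7.31). No background signal was used here, so these folds may be lower limits. The difference of these effects was 0.98 (95% interval 0.79 to 1.18; limma, adjusted p = 3.03e-06) and lay between 0.94 and 1.05 under each alternative setting and with each array left out. ETV4 read between 6.40 and 6.74 on all 12 arrays, with overlapping groups in both lines (0.06, 95% interval -0.10 to 0.23 in L-428 and 0.08, -0.09 to 0.24 in L-1236), and its row is also dim (percentile 31.2).

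**Figure D2:**
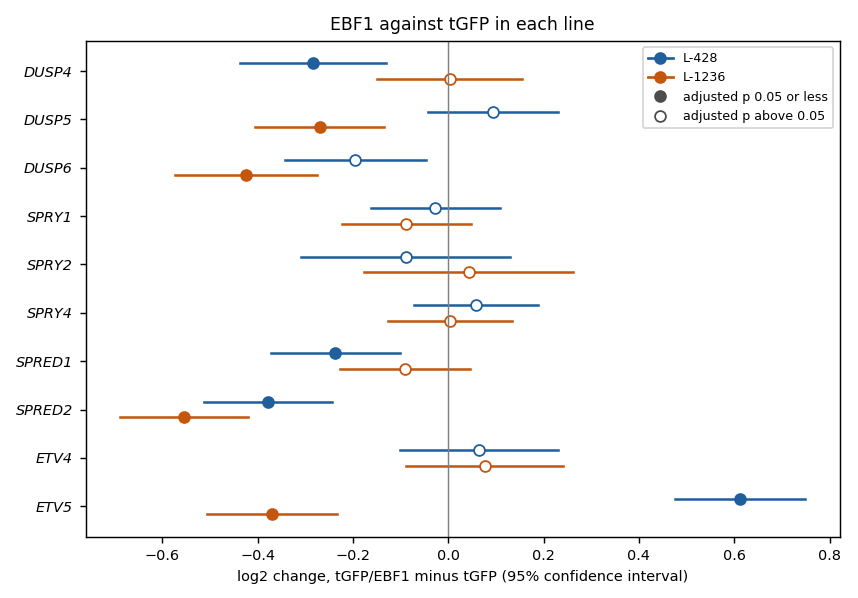
EBF1 effect on each gene in L-428 (blue) and L-1236 (orange), as the log2 change with its 95% confidence interval (limma, n = 3 a group); filled points passed an adjusted p of 0.05. Of the genes with a filled point, SPRED2 lies left of 0 in both lines and ETV5 lies at 0.61 in L-428 and -0.37 in L-1236.

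Over the 10 genes, 2 passed for the difference of EBF1 effects, ETV5 and DUSP5, both with the higher effect in L-428, where 5.16% of tested rows passed (3.38% higher, 1.79% lower). The rows whose pattern was most like these were sought among 19148 rows with 1 symbol, by Pearson's r over the 12 arrays after the mean of each line was subtracted. For ETV5 they were the anion exchanger SLC26A4 (r = 0.96), the ion channel PIEZO2 (0.96) and LAMP3 (0.95). SLC26A4 changed by 1.80 in L-428 and by -1.34 in L-1236, and PIEZO2 by 0.39 and -0.46, all past the threshold (limma). LAMP3 rose by 0.33 in L-428 and did not pass in L-1236 (-0.13; limma, adjusted p = 0.172). For DUSP5 they were ALYREF (0.96), DFFA and NIBAN1 (both 0.95). The 3 rows fell in L-1236, by 0.29, 0.31 and 0.65, and did not pass in L-428 (limma). These values of r describe the rows picked as highest of many and carry no test. The limma calls of these rows follow in part from that choice, made on the same arrays, and are no separate test.

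The calls differed in how far they rested on single arrays, as the plot of left-out arrays shows. With each of the 12 arrays left out in turn, SPRED2 and ETV5 passed every time in both lines, and DUSP6 every time in L-1236. DUSP5 in L-1236 failed in 2 of 12 cases, DUSP4 in L-428 in 5 and SPRED1 in L-428 in 9. The members passing in L-428 were thus 2, SPRED2 and ETV5, without tGFP replicate 1 or 2 or any 1 of the 3 EBF1 arrays of that line. Without both arrays whose spread stood apart, 5 genes passed in L-428 (1 higher, 4 lower), DUSP6 in addition to the 4 named, and in L-1236 the same 4 passed. The share of all tested rows that passed was then 9.66% in L-428 and 12.8% in L-1236, against 4.34% and 9.64% with all 12 arrays.

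**Figure D3:**
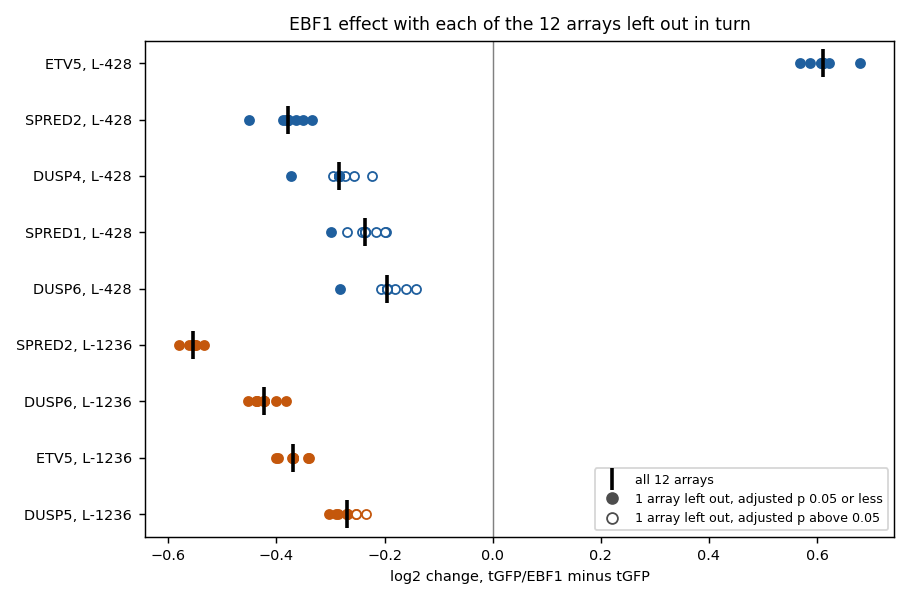
EBF1 effect (log2 change) with all 12 arrays (black bar) and with each array left out in turn (points; open where the adjusted p rose above 0.05), for the 9 pairs of gene and line named on the axis. Leaving out L-428 tGFP replicate 3 gives the lowest values of SPRED2, DUSP4, SPRED1 and DUSP6 in L-428 (-0.45, -0.37, -0.30 and -0.28).

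In the tGFP controls the gap between the lines for DUSP4, DUSP6, SPRY2 and SPRED1 was at least 1.65 on the log2 scale. That was larger than the EBF1 effect on any of the 10 genes. For ETV5, and for SPRED2 in L-1236, the EBF1 effect was larger than the gap between the controls. This comparison shares its arrays with the EBF1 comparisons above, so they are not independent. Between the tGFP controls 8 of 10 genes passed (6 higher in L-428, 2 lower), where 47.9% of tested rows did (26.1% higher, 21.7% lower), and 4 differed by 2-fold or more, where 7.20% of rows did. The median difference, L-428 minus L-1236, was 0.44 over the 10 genes and -0.006 over all rows. DUSP6 was 5.54-fold higher in L-428 (10.51 ± 0.15 against 8.04 ± 0.073, mean ± SD, log2, n = 3; limma, adjusted p = 8.68e-16). DUSP4 was 4.35-fold higher (8.89 ± 0.16 against 6.77 ± 0.017), SPRY2 3.26-fold (7.91 ± 0.17 against 6.21 ± 0.19) and SPRED1 3.13-fold (9.39 ± 0.11 against 7.74 ± 0.027). All single arrays of L-428 lay above those of L-1236 for these 4 genes. DUSP4 and SPRY2 lay below the array medians in L-1236 and no background signal was used here, so their folds may be lower limits. SPRY1 (0.46) and SPRED2 (0.42) were higher in L-428 by less than 2-fold. DUSP5 was lower in L-428 by 0.80 and ETV5 by 0.21 (limma, adjusted p = 3.67e-09 and 0.012). The ETV5 call was lost without L-1236 tGFP replicate 1 (limma, adjusted p = 0.0613) and after quantile normalization or median centring. SPRY4 and ETV4 did not pass, although SPRY4 did with array weights (-0.13 under both ways of weighting; limma, adjusted p = 0.0341 and 0.0463). Single arrays of the lines did not overlap for 8 of the 10 genes, against 52.8% of rows.

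**Figure D4:**
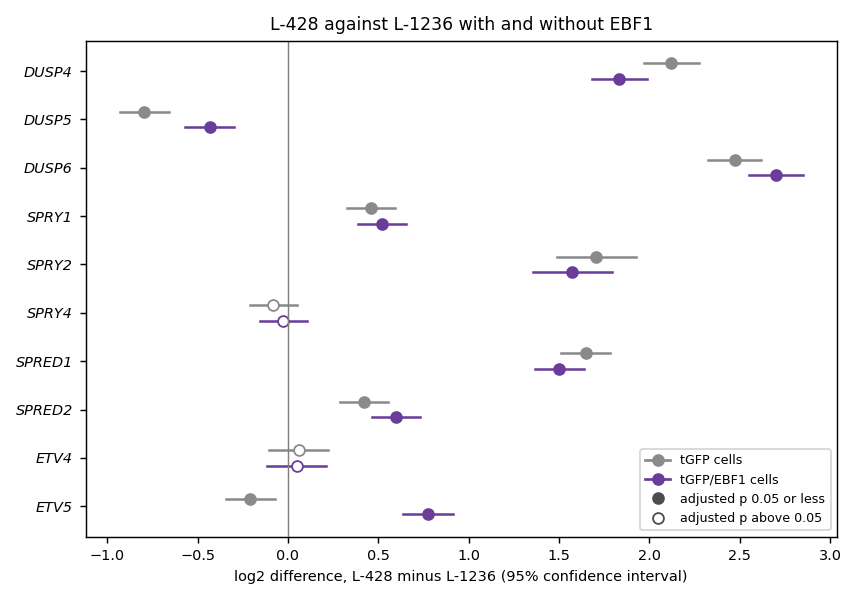
Difference between the lines, L-428 minus L-1236, as log2 with its 95% confidence interval (limma, n = 3 a group), for tGFP cells (grey) and tGFP/EBF1 cells (purple); filled points passed an adjusted p of 0.05. DUSP6 lies farthest to the right in both, at 2.47 and 2.70, and ETV5 lies at -0.21 in tGFP cells and 0.77 in tGFP/EBF1 cells.

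With EBF1 in both lines, 8 of 10 genes again passed (7 higher in L-428, 1 lower), where 50.5% of rows did (28.2% higher, 22.3% lower), and the same 4 differed by 2-fold or more, where 7.65% did. Single arrays did not overlap for 8 genes, against 59.5% of rows. The change from the controls was in ETV5, which was higher in L-428 by 0.77 (limma, adjusted p = 6e-09) after being lower there without EBF1. The gap in DUSP5 was -0.43 with EBF1 and -0.80 without. The gap in DUSP6 was 2.70 with EBF1 and 2.47 without, in SPRED2 0.60 and 0.42, and in DUSP4 1.83 and 2.12. These pairs of gaps differ by the difference of EBF1 effects given above, which passed for ETV5 and DUSP5.

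The order of the 4 groups was read from the means, with neighbours compared in the same fit. Of these comparisons, those that cross both line and transduction were added after the values were seen. For SPRED2, L-428 tGFP was highest (9.02), L-428 with EBF1 (8.64) and L-1236 tGFP (8.60) were not shown to differ (limma, adjusted p = 0.65), and L-1236 with EBF1 was lowest (8.04). For ETV5 the order was L-428 with EBF1 (7.65), L-1236 tGFP (7.24), L-428 tGFP (7.04) and L-1236 with EBF1 (6.87), with each neighbouring pair past the threshold, the last at an adjusted p of 0.0464 (limma). For DUSP5 both L-1236 groups (9.60 with tGFP, 9.33 with EBF1) lay above both L-428 groups (8.90 with EBF1, 8.80 with tGFP), which were not shown to differ from each other. For DUSP6, SPRY1, SPRY2, SPRED1 and DUSP4 both L-428 groups lay above both L-1236 groups. For SPRY4 and ETV4 no neighbouring pair passed without weights. With array weights ETV4 was higher in L-428 than in L-1236 with EBF1, by 0.23 and, weighted gene by gene, by 0.19 (limma, adjusted p = 4.87e-05 and 0.00544), against 0.05 without weights. Both weightings leaned on L-1236 tGFP/EBF1 replicate 3 (weights 36.7, not converged, and 3.86), which read lowest of its group for ETV4 (6.40). Without that array the ETV4 gap, unweighted, was -0.04.

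The other genes of the pathway were read from 6 lists, of which 77 genes had a row of their own. In L-428, 10 rose and 0 fell with EBF1 (13% passed, against 4.34% of all rows, 2.62% higher and 1.72% lower) and their median change was 0.02. Without both arrays that stand apart, 9 were higher and 7 lower, where 9.66% of all rows passed, so the one-sided split was lost without them. In L-1236, 7 rose and 4 fell (14.3% passed, against 9.64% of all rows), with a median of 0.02, and without those arrays 9 were higher and 8 lower, where 12.8% of all rows passed. Between the tGFP controls 26 of the 77 were higher in L-428 and 20 lower (59.7% passed, against 47.9% of all rows), and without both arrays 29 were higher and 23 lower, where 56% of all rows passed. The lists are described by counts only, and no list was tested against other genes.

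Among 22 other ERK-induced genes, 5 rose and 0 fell in L-428 (median 0.09), or 22.7% against 4.34% of all tested rows. Without both arrays 4 were higher and 1 lower, where 9.66% of rows passed. FOS, the AP-1 subunit, rose by 1.04 (limma, adjusted p = 3.13e-06), the early growth response factor EGR1 by 0.49 and the stress-induced gene IER3 by 0.48, and the others were CCND1 (0.27), which encodes cyclin D1, and IER2 (0.25). In L-1236, 2 rose and 0 fell (median 0.03), CCND1 by 0.21 and IER2 by 0.22, or 9.09%, near the 9.64% of all rows. Without both arrays 3 were higher and 1 lower there, where 12.8% of rows passed. With all arrays FOS did not pass in L-1236 (0.23, adjusted p = 0.182 in limma). The difference between the lines passed for FOS (0.80), IER3 (0.48) and PHLDA1 (0.40). Without both arrays IER2 in L-428 no longer passed (0.18; limma, adjusted p = 0.0656), FOS (0.87), EGR1 (0.37), IER3 (0.33) and CCND1 (0.26) did, and FOS passed in L-1236 (0.24; limma, adjusted p = 0.0363).

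Among 8 other dual-specificity phosphatases, DUSP7, a cytoplasmic ERK phosphatase related to DUSP6, rose in both lines. Its signal went from 10.13 to 10.78 in L-428 and from 9.37 to 10.52 in L-1236 (group means, log2), a change of 0.65 and 1.15 (limma, adjusted p = 3.76e-05 and 1.34e-08). The rise was larger in L-1236 (difference of effects -0.50; limma, adjusted p = 0.00953). DUSP2, a nuclear phosphatase of lymphocytes, rose by 0.32 and 0.27. DUSP16 (-0.30) and DUSP14 (-0.24) fell in L-1236 and did not pass in L-428. In all, 2 rose and 0 fell in L-428 (25%, against 4.34% of all rows), and 2 rose and 2 fell in L-1236 (50%, against 9.64%). Without both arrays 2 were higher and 1 lower in L-428, and 2 and 3 in L-1236, where 9.66% and 12.8% of rows passed. DUSP6 and DUSP7 thus moved in opposite directions in L-1236, by -0.42 and 1.15.

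Of 14 kinases and factors downstream of ERK, 2 rose and 0 fell in L-428 (14.3%, against 4.34% of all rows). In L-1236, 1 rose and 0 fell (7.14%, against 9.64% of all rows). MKNK2, a kinase that phosphorylates the translation factor eIF4E, rose by 0.99 in L-428 and 0.57 in L-1236 (limma, adjusted p = 6.11e-07 and 0.000188), and the ribosomal S6 kinase RPS6KA2 rose by 0.57 in L-428. Of 10 genes of the Ras to ERK cascade itself, 1 rose and 0 fell in L-428 (10%), the scaffold LAMTOR3 (0.31). In L-1236 the ERK1 gene MAPK3 fell by 0.35 and MRAS rose by 0.26 (20%). Without both arrays 1 was higher and 3 lower in L-428, and 2 and 1 in L-1236, where 9.66% and 12.8% of all rows passed. MAPK3 then passed in L-428 too (-0.24, adjusted p = 0.0155 in limma), and LAMTOR3 in L-1236 (0.26, adjusted p = 0.0316 in limma). Of 17 adaptors and regulators of Ras, 0 passed in L-428 (2 at an unadjusted p under 0.05, limma). In L-1236 the phosphatase PTPN11 fell by 0.32 and the GTPase-activating protein RASA2 rose by 0.25 (11.8%, against 9.64% of all rows). Without both arrays 0 were higher and 2 lower in L-428, and 1 and 3 in L-1236. None of 6 other inhibitors of the pathway passed in either line (1 at an unadjusted p under 0.05 in L-428 and 0 in L-1236, limma).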

How the data were processed

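The authors deposited 1 log2 value per array and row for 12 Affymetrix arrays of biotin-labelled, amplified total RNA, per the labels' protocols. The log base is read from the range, which ends at 14.3. Array build, summarization and normalization: not given in the sources used here, so no coordinates of array rows are given. They were not rescaled. A model of 4 group means was fitted with lmFit and eBayes (limma 3.58.1, R 4.3.3; 8 residual and 9.98 prior degrees of freedom) on 20546 rows with a symbol, with Benjamini-Hochberg adjustment over those rows within each contrast. "Rose" and "fell" mean an adjusted p of 0.05 or less. The fit was tried on simulated data with independent noise, equal in spread on every array, and changes planted in L-428 only. That setting leaves out the unequal arrays of these data. Rows with several symbols (1388) were named only for EBF1, whose row also lists PDGFRB. The members, lists and rules were chosen with earlier results of these data known. All 10 members were named. From each pathway list up to 3 passing genes per EBF1 contrast with the smallest adjusted p were named, and CCND1 and IER2 in L-428 were added after their values were seen. Up to 3 rows most like each member that differed between the lines were also named. Alternatives covered scaling, rows tested, variance model, array weights, groups fitted, replicate block, arrays left out and thresholds. Leaving out both arrays that stand apart and a second array weighting were chosen after seeing the data. Promoters were searched and figures drawn with Python 3.11.15 and matplotlib 3.10.9. The number of arrays limits the precision.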

Additional observations from a re-analysis of the deposited data

Results flagged for a closer look

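Of the 10 genes, 2 had an EBF1 effect that differed between the lines by the test of the difference itself. For ETV5 the difference of effects, L-428 minus L-1236, was 0.98 on the log2 scale (limma, adjusted p = 3.03e-06), and its signal was higher in 3 of 3 EBF1 arrays of L-428 and lower in 3 of 3 of L-1236 than in any control array of the line. For DUSP5 the difference was 0.36 (limma, adjusted p = 0.0238), with 3 of 3 EBF1 arrays lower in L-1236 and overlapping groups in L-428. No cause of either was tested. Groups of 3 arrays are too small for the check on outlying samples.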

How the results depend on the processing

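Of 1180 recomputed values of single genes, 1085 kept direction and side of the threshold, 37 fell short of it, 20 newly passed and 38 changed sign. The members passing in L-428 numbered 4, and 2 (SPRED2 and ETV5) after median centring, over every row of the table, in the single-line fit and at an adjusted p of 0.01. The members passing for the difference of effects numbered 2. They were 4 after quantile normalization, 6 with array weights, 4 with array weights gene by gene, and 1 (ETV5) after median centring, over every row and at an adjusted p of 0.01. With the 2-fold limit 0 passed in each EBF1 contrast and for the difference, and 4 in each contrast between the lines. Leaving out single arrays gave 2 to 5 in L-428 and 1 to 3 for the difference of effects. Except for the 2-fold limit, the share of all tested rows that passed was not computed under these settings. The counts of members therefore cannot be set against it. The share does move with the arrays used: for the difference it was 9.23% without both arrays that stand apart, against 5.16% with all arrays. The default array weights stopped before they converged, with a weight of 36.7 on L-1236 tGFP/EBF1 replicate 3. Where not named, the cause of these shifts was not tested.

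Sign changes touched the 5 genes SPRY1, DUSP4, SPRY2, SPRY4 and ETV4 where their change had not passed. With array weights SPRY1 in L-428 was 0.0012. DUSP4 in L-1236 was -0.0102 after quantile normalization, -0.105 with array weights (adjusted p = 0.0246, limma), -0.0777 gene by gene and -0.0152 without both arrays. SPRY4 there was -0.0121, -0.0256, -0.0227 and -0.0178 under those settings in turn. ETV4 there was -0.0944, -0.0536 and -0.0043 with array weights, gene by gene and without both arrays, and SPRY2 -0.0401 without both arrays. The difference of effects for ETV4 was 0.0178 after quantile normalization, 0.0051 after median centring, 0.225 with array weights (adjusted p = 0.0391, limma), 0.177 gene by gene and 0.135 without both arrays. ETV4 between the controls was -0.0068 without both arrays. SPRY4 between the EBF1 groups was 0.0611, 0.0480 and 0.0007 after quantile normalization, median centring and array weights. Leaving out single arrays moved SPRY2 from -0.158 to 0.0058 in L-428, and in L-1236 DUSP4 from -0.0336 to 0.0589, SPRY2 from -0.0401 to 0.151, SPRY4 from -0.0297 to 0.0321 and ETV4 from -0.0043 to 0.165. It moved ETV4 from -0.101 to 0.0690 for the difference, from -0.0068 to 0.101 between the controls and from -0.0421 to 0.128 between the EBF1 groups, where SPRY4 ran from -0.0570 to 0.0176.

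The values do not settle whether the replicate numbers pair the arrays. Deviations from group means, each taken from 3 arrays, correlated at 0.23, -0.21 and -0.02 for replicates 1, 2 and 3 of the L-428 groups. For those of L-1236 they correlated at 0.28, -0.07 and 0.19. Within both lines tGFP replicate 1 correlated best with the EBF1 array of its own number, and tGFP replicates 2 and 3 did not. With the replicate block 3 members passed in L-428, 4 in L-1236 and 2 for the difference, and 8 in each contrast between the lines. The share of all tested rows that passed with the block was not computed.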
